A study of Mus musculus with 6 samples.

Results

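Metallothioneins and genes of the NRF2 antioxidant response were followed in mouse hearts with and without conditional knockout of Ythdc1, a nuclear reader of N6-methyladenosine marks on RNA. The set was chosen by gene symbol and holds 10 of the 54532 genes in the deposited table: the metallothioneins Mt1 and Mt2, the regulators Nfe2l2 and Keap1, and the enzymes Nqo1, Gclc, Gclm, Txnrd1, Srxn1 and Gpx3. Hearts came from mice with 2 floxed Ythdc1 alleles (genotype label Ythdc1flox/flox, flox control, 3 libraries) and from mice labelled Ythdc1-CKO (CKO, 3 libraries), both on normal chow for 15 days. The series text writes HKO for the knockout. Neither the Cre driver, the deleted exons, the age nor the sex of the mice is given in the labels used here, which call the libraries of a group independent biological replicates. Levels are FPKM, that is, fragment counts scaled to the length of the gene model and to sequencing depth, so that they can be compared between genes.

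NRF2, encoded by Nfe2l2, is a transcription factor that KEAP1 holds in the cytoplasm and hands to a ubiquitin ligase for destruction. When electrophiles or oxidants modify KEAP1, NRF2 escapes, pairs with a small MAF protein and binds antioxidant response elements near genes for quinone reduction, glutathione synthesis and thioredoxin recycling. Metallothioneins are small cysteine-rich proteins that bind zinc and copper and scavenge radicals. Their genes respond to metals through the factor MTF1, and also to glucocorticoids and inflammatory cytokines.

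Ythdc1 itself was at 4.02 ± 0.344 FPKM in flox controls and 2.44 ± 0.119 FPKM in CKO hearts (SD, n = 3 each), with no overlap between the groups. It fell by 0.54 on the log2(FPKM + 1) scale (limma adjusted p = 0.0150), a call that ended without flox control 1 (0.0707), flox control 3 (0.0637) or CKO 3 (0.0535), or with libraries rescaled to the same sum (0.0888). Reads assigned to genes, recovered from the FPKM values, numbered 17434296 to 19360428 per library. CKO 3 carried female sex-linked expression (Ddx3y at 0.350 FPKM) and the other 5 libraries male expression (10.8 to 15.9 FPKM). Summed macrophage markers stood at 883 FPKM in CKO 1 against 119 to 296 FPKM elsewhere, with 0 of 7 tested markers called. Summed cardiomyocyte markers were 15829 to 19624 FPKM in flox controls and 12153 to 16115 FPKM in CKO hearts. All 8 had a negative log2 fold change (median -0.38), and 1, Tnni3, passed the test. Of 6 atrial markers, Nppa was called higher and Sln and Stard10 lower, with a list median of -1.99. Myl7 (means 151 and 34.7 FPKM) and Myl4 (21.3 and 3.73 FPKM) were also lower, with no overlap between the groups. They fell short of the threshold (limma adjusted p = 0.0631 and 0.0534). Dkk3 was not called, and its groups overlapped. The part of these shifts in the values below was not tested. In whole hearts, fewer cells of a type and less RNA per cell cannot be told apart.

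Nqo1 and Gpx3 rose in CKO hearts, by 4.30-fold and 3.00-fold in mean FPKM, while the other tested members did not pass the test. Of the 10 members, 9 reached a mean of 1 FPKM and were tested; Mt2 did not. In the limma test over 12144 genes, with a Benjamini-Hochberg adjusted p under 0.05 as the threshold, 2 of the 9 were higher in CKO hearts and 0 lower. Over all genes tested 5.69% were called higher and 5.49% lower. With 9 genes, 2 calls are a description and set no rate for the class. The 7 members that did not pass had log2 fold changes between -0.03 and 0.28, on the log2(FPKM + 1) scale used for every log2 value here. The median over the 9 was 0.19, against 0.0076 over all genes tested.

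**Figure D1:**
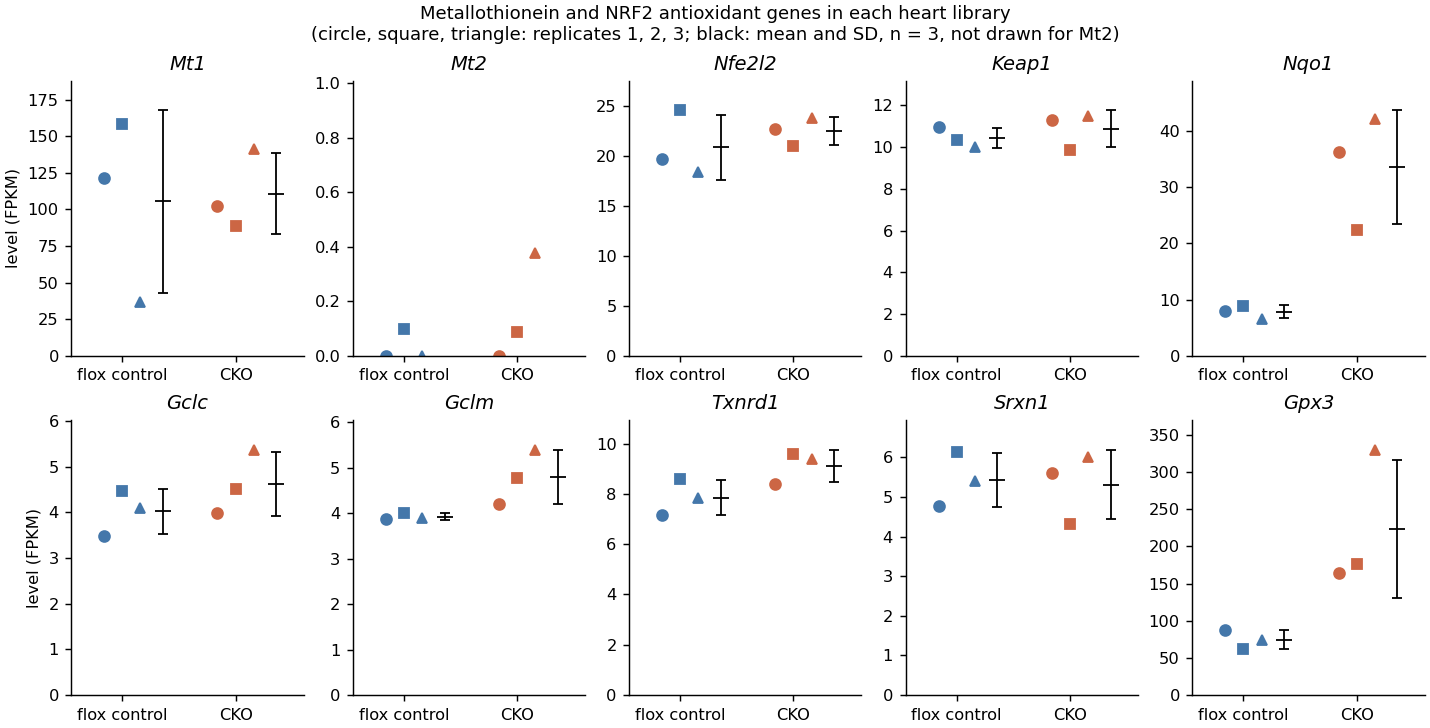
Level in FPKM (vertical axes, each starting at 0) of the 10 genes in each library of flox control and CKO hearts; symbols give the replicate and black marks the mean and SD. Nqo1 and Gpx3 were separated between the groups by a wide gap, Gclm by a narrow one, and the other genes overlapped.

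Neither regulator passed the test between genotypes. Nfe2l2 stood at 19.7, 24.6 and 18.3 FPKM across flox controls 1 to 3, against 22.7, 20.9 and 23.7 FPKM across CKO 1 to 3. The highest and the lowest library were both controls. Its log2 fold change was 0.11, with a 95% interval of -0.19 to 0.41 (limma adjusted p = 0.628). Keap1, the repressor, measured 10.95, 10.36 and 10.02 FPKM across flox controls 1 to 3, against 11.3, 9.87 and 11.5 FPKM across CKO 1 to 3, and these ranges overlapped as well. Its log2 fold change was 0.05 with an interval of -0.16 to 0.27 (adjusted p = 0.756). An antisense gene, Gm16754, shares 510 of the 4693 exon bases of Keap1 and was at 0.591 to 0.867 FPKM. Within a library, the ratio of Nfe2l2 to Keap1 was 2.0003 ± 0.3204 in controls and 2.07 ± 0.0558 in CKO hearts (SD, n = 3; exact two-sided permutation p = 0.9, and 0.9 adjusted over 6 ratios, all chosen after the values were seen). RNA levels do not show how much NRF2 protein was present or where in the cell it was.

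Mt1 was one of the 2 most abundant members and had the widest interval of those tested. It lies at chr8:94179082-94180327 on the plus strand (GRCm38), and Mt2 at chr8:94172664-94173568. It measured 121, 158 and 36.8 FPKM in flox controls 1, 2 and 3 (from 2551, 3463 and 914 reads) and 102, 88.4 and 141 FPKM in CKO 1, 2 and 3. All CKO values lay within the range of the controls, which flox control 3 widened at the low end. The means were 105 ± 62.2 and 111 ± 27.5 FPKM, and the log2 fold change of 0.28 had an interval from -0.97 to 1.53 (limma adjusted p = 0.776). A change of over 2-fold upward is thus within what these libraries allow. Without flox control 3 the log2 fold change turned to -0.35 (adjusted p = 0.473). The gene model counted for Mt1 covers 1246 bases, the whole span of the gene with its introns, and FPKM divides by that length.

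Mt2 could hardly be measured in these files. It had 0, 1 and 0 reads in flox controls 1, 2 and 3 and 0, 1 and 4 reads in CKO 1, 2 and 3, so no fold is given. The antisense gene Gm45774 covers 432 of its 588 exon bases, leaving 156 free, and held only 0 to 6 reads in any library. The protocol in the labels describes no strand marking, and how reads over 2 genes were assigned is not given in the sources used here. The part of this overlap in the Mt2 counts was not tested. Mt3, the brain-type metallothionein gene, was measured at a low level: 1.22, 1.87 and 1.46 FPKM across flox controls 1 to 3, against 4.23, 3.04 and 4.61 FPKM across CKO 1 to 3. It rose in CKO hearts (log2 fold change 0.97, SE 0.16, limma adjusted p = 0.0153), with no overlap between the groups. Leaving out flox control 1 ended this call (adjusted p = 0.0633), as did leaving out flox control 3 (0.0595) or CKO 3 (0.0513).

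The letters before the RefSeq starts of Mt1 and Mt2 are shown with the metal and antioxidant response cores found in them. Sequences are the 250 bases before the start of the RefSeq entry on GRCm38.p6, plus strand, at chr8:94178839-94179088 for Mt1 and chr8:94172368-94172617 for Mt2. Capitals mark matches on either strand to the core of the metal response element (TGCACNC or TGCGCNC) or of the antioxidant response element (TGACNNNGC).
Mt1: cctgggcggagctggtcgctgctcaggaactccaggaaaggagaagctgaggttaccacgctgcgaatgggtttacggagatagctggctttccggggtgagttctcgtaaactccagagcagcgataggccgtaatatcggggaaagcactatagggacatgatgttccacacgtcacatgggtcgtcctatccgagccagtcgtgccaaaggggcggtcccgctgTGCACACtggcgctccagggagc
Mt2: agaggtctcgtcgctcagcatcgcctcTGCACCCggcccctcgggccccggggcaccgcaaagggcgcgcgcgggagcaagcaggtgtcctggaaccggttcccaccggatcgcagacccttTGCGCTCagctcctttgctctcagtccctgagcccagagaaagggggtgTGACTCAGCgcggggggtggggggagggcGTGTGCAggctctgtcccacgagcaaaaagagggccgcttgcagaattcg
The Mt1 stretch held 1 metal response core and the Mt2 stretch 3, and Mt2 also held 1 antioxidant core, which overlapped none of them. Of 27018 promoters of the same length, 21.3% held at least 1 metal response core, 1.28% at least 3, and 10.2% at least 1 antioxidant core. All 250 bases of the Mt2 stretch also lie in an exon of Gm45774. The last 7 bases of the Mt1 stretch lie in an annotated Mt1 exon. Letters outside these windows, including those after each RefSeq start, were not searched. The counts are thus not those of the whole promoters and do not describe how Mt1 or Mt2 responds to metals. A match describes letters only and is not evidence of binding.

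Mt1 had its lowest level in flox control 3, and most listed genes that glucocorticoids induce were lowest in the same library. Of 16 such genes tested, 12 had their lowest value of the 6 libraries in flox control 3, against 16.2% of all genes tested. The rest of the list, also named after the values were seen, was lowest in CKO 1 (Tsc22d3, Klf9 and Dusp1) or CKO 2 (Klf15). Dusp1 went the other way, with its highest value of the 6 libraries in flox control 3 (57.8 FPKM). Fkbp5 and Zbtb16 are given as examples picked after their values were seen, from among the genes that were lowest there. Fkbp5, a receptor co-chaperone and a standard glucocorticoid target, was at 4.32, 4.04 and 0.880 FPKM across flox controls 1 to 3, against 5.45, 4.30 and 10.02 FPKM across CKO 1 to 3. Zbtb16, another such target, was at 26.0, 12.3 and 2.49 FPKM across flox controls 1 to 3, against 11.2, 4.01 and 9.10 FPKM across CKO 1 to 3. The part of this in the Mt1 values was not tested. By the root mean square difference of mean-centred log2 values over the 6 libraries, the genes closest to Mt1 were A930028N01Rik (0.207), Sult1a1 (0.261), Gadd45b (0.275) and Tmem100 (0.298). Sult1a1, a sulfotransferase gene on the list of 16, measured 30.6, 25.7 and 9.62 FPKM across flox controls 1 to 3, against 27.1, 20.8 and 28.5 FPKM across CKO 1 to 3. None of these 4 genes passed the test between genotypes (limma adjusted p from 0.600 for Gadd45b to 0.992 for A930028N01Rik). They were chosen by closeness to Mt1 over the same libraries, so a like pattern follows from the choice. As a group, 1 of the 16 glucocorticoid-induced genes rose in CKO hearts and 15 did not pass, with a median log2 fold change of 0.12. This count is near the 5.69% called higher over all genes tested. The one that rose, Cdkn1a, encodes the cell cycle inhibitor p21, which is also a p53 target (18.8 ± 11.5 and 69.5 ± 22.6 FPKM, adjusted p = 0.0479). Without flox control 1 (0.128), flox control 3 (0.0748), CKO 2 (0.127) or CKO 3 (0.119) it was no longer called. The same held with no filter on low values (0.112), a pseudocount of 0.1 (0.0512) or 0.01 (0.0521), no variance trend (0.0504) or robust variance estimation (0.0534).

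**Figure D2:**
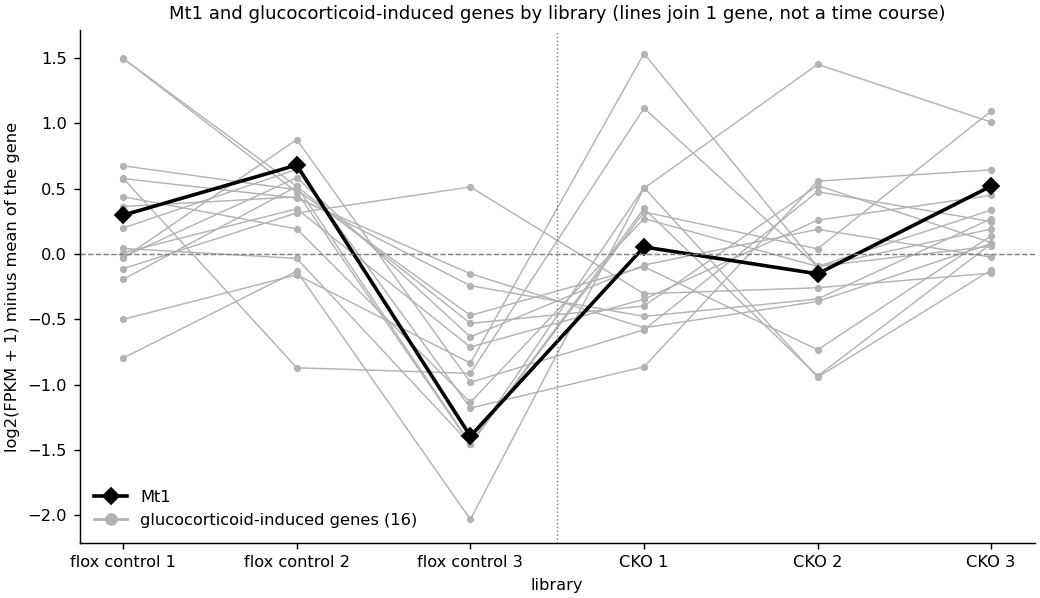
Centred log2(FPKM + 1) values (vertical axis) of Mt1 in black and of 16 glucocorticoid-induced genes in grey, by library (horizontal axis); lines join the values of 1 gene. Most grey lines and Mt1 dip in flox control 3.

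Nqo1, which encodes the quinone reductase most often used as a readout of NRF2 activity, showed the largest log2 fold change of the 9 tested members. The gene lies at chr8:107388225-107403206 on the minus strand and shares no exon base with another gene. It measured 8.04, 8.87 and 6.56 FPKM across flox controls 1 to 3, against 36.3, 22.4 and 42.1 FPKM across CKO 1 to 3. The lowest CKO library stood at 2.53 times the highest control. The means were 7.82 ± 1.17 and 33.6 ± 10.1 FPKM, and the log2 fold change was 1.93 (SE 0.23, interval 1.37 to 2.49, limma adjusted p = 0.00746). By fold change it ranked at 40 among the 691 genes called higher. The call held in all 17 alternatives, with adjusted p between 0.000822 and 0.0382 and log2 fold changes between 1.75 and 2.19. Without CKO 3, the library with female expression, the log2 fold change was 1.75 (adjusted p = 0.0250).

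Gpx3 encodes a secreted, selenium-containing glutathione peroxidase that removes hydrogen peroxide in plasma, and the gene lies at chr11:54902453-54910377 on the plus strand with no exon overlap. Its level was 87.6, 61.7 and 74.7 FPKM across flox controls 1 to 3, against 164, 176 and 330.5 FPKM across CKO 1 to 3. CKO 3 stood well above the other CKO libraries, and the lowest CKO library was still 1.88 times the highest control. The means were 74.6 ± 12.9 and 224 ± 92.8 FPKM, with a log2 fold change of 1.51 (SE 0.29, interval 0.83 to 2.19, adjusted p = 0.0241, limma). Without CKO 3 it was 1.19 and remained called (adjusted p = 0.0320). It was not called when flox control 1 (adjusted p = 0.0692), flox control 2 (0.0784) or flox control 3 (0.0778) was left out, nor with no filter on low values (0.0590). CKO 3 is also the library with female expression, and the part of sex in the Gpx3 values was not tested. Adipocytes are known to make this enzyme. The summed level of 6 of their markers was 0 to 0.590 FPKM in every library.

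The letters before the RefSeq starts of these 2 genes are given because they are the members that rose. For Nqo1 the 250 bases before the RefSeq start are on the minus strand at chr8:107403206-107403455 (GRCm38.p6). For Gpx3 the 168 bases of that window ahead of its first annotated exon there are printed (plus strand, chr11:54902604-54902771). The annotated Gpx3 gene begins earlier, at base 54902453. The printed Gpx3 letters thus lie inside the gene, between exons, and not ahead of it.
Nqo1: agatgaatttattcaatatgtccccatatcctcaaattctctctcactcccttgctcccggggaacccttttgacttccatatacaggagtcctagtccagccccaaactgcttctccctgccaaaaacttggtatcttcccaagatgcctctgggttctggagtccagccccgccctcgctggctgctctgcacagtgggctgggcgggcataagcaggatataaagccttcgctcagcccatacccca
Gpx3: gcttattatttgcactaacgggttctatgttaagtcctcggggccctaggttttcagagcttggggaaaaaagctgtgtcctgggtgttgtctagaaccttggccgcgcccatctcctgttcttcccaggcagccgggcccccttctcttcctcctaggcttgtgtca
Neither core motif is in these letters or in the rest of the Gpx3 window, which is why no base is in capitals. This says nothing of elements outside the window. Among the 9 members with a RefSeq promoter entry, the antioxidant core was found for 4 (Mt2, Nfe2l2, Gclm and 1 of 3 starts of Txnrd1). Over 27018 promoters, with 1 window per gene, 10.2% held it. Nfe2l2, Gclm and Txnrd1 did not pass the test between genotypes, and Mt2 could not be tested. The part of these letters in the levels was not tested. In Gclm the antioxidant match overlapped a metal response core. Gclc had no entry.

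The remaining enzymes, which are classical NRF2 targets too, showed small differences that did not pass the test. Glutamate-cysteine ligase makes the first bond of glutathione and consists of a catalytic subunit, Gclc, and a modifier subunit, Gclm. Gclc measured 3.49, 4.48 and 4.10 FPKM across flox controls 1 to 3, against 3.98, 4.50 and 5.38 FPKM across CKO 1 to 3, with overlapping groups (log2 fold change 0.16, interval -0.14 to 0.46, limma adjusted p = 0.457). Gclm measured 3.88, 4.01 and 3.89 FPKM across flox controls 1 to 3, against 4.21, 4.78 and 5.40 FPKM across CKO 1 to 3. Its groups did not overlap, as was so in the same direction for 16.9% of all genes tested, and its log2 fold change was 0.23 (interval -0.0015 to 0.46, adjusted p = 0.183). The ratio of Gclc to Gclm was 1.02 ± 0.112 in controls and 0.961 ± 0.0295 in CKO hearts (n = 3, exact permutation p = 0.4, adjusted p = 0.48).

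Txnrd1 encodes the cytosolic selenoprotein that recycles thioredoxin. It stood at 7.16, 8.58 and 7.82 FPKM across flox controls 1 to 3, against 8.39, 9.60 and 9.38 FPKM across CKO 1 to 3, with CKO 1 below flox control 2 (log2 fold change 0.19, interval -0.04 to 0.42, limma adjusted p = 0.244). Srxn1, the sulfiredoxin gene whose product repairs over-oxidized peroxiredoxins, was at 4.76, 6.14 and 5.39 FPKM across flox controls 1 to 3, against 5.61, 4.32 and 6.01 FPKM across CKO 1 to 3. The CKO values fell on both sides of the control mean, and the log2 fold change was -0.03 (interval -0.35 to 0.29, adjusted p = 0.913), with a sign that depended on the scaling. By position on GRCm38, Nfe2l2 is at chr2:75675513-75704641, Keap1 at chr9:21229730-21239361, Gclc at chr9:77754535-77794485, Gclm at chr3:122245557-122270732, Txnrd1 at chr10:82833951-82897712 and Srxn1 at chr2:152105516-152111376. Gclm shares 296 exon bases with Gm17494 on the opposite strand and 244 with the pseudogene Gm6061. For Gclc, Gclm, Txnrd1 and Srxn1 the upper limits of the intervals lay between 0.29 and 0.46, below the lower limit of 1.37 for Nqo1.

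**Figure D3:**
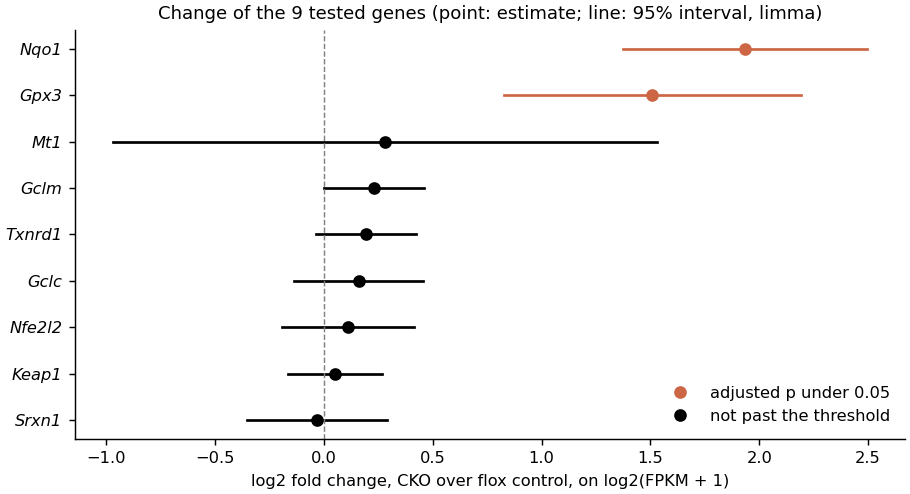
Log2 fold change of CKO over flox control (horizontal axis) with its 95% interval for the 9 tested genes. The intervals of Nqo1 and Gpx3 lie above 0, and that of Mt1 is the widest.

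Nqo1 and Gpx3 were also set against related genes of the same library. The ratios were chosen after both genes were seen to rise, so they restate that rise and add no separate support. The ratio of Nqo1 to Txnrd1 was 0.998 ± 0.145 in controls and 3.72 ± 1.199 in CKO hearts, higher in 3 of 3 CKO libraries than in any control. The exact two-sided permutation p was 0.1, which is the lower bound for groups of 3 (0.15 adjusted over the 6 ratios). The ratio of Gpx3 to Gpx4, the membrane-protecting selenoprotein peroxidase, was 0.518 ± 0.133 in controls and 1.03 ± 0.215 in CKO hearts (exact permutation p = 0.1, adjusted p = 0.15).

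In level, Mt1 and Gpx3 were the most abundant members in flox controls (105 and 74.6 FPKM), with overlapping ranges, followed by Nfe2l2 at 20.9 FPKM and Keap1 at 10.4 FPKM. Nqo1 and Txnrd1 came next at 7.82 and 7.85 FPKM and did not differ beyond their spread. Srxn1 followed at 5.43 FPKM, and Gclc (4.02 FPKM) and Gclm (3.93 FPKM) were lowest of those tested and overlapped each other. In CKO hearts the order differed in that Gpx3 stood above Mt1 in each library and Nqo1 above both Keap1 and Nfe2l2 in each library.

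By the same distance as for Mt1, the genes closest to Gpx3 across the 6 libraries were Aldh1a1 (0.190), Igsf23 (0.200), Frzb (0.221) and 9530034E10Rik (0.229). Aldh1a1 encodes a retinaldehyde dehydrogenase and Frzb a secreted Wnt antagonist. Frzb measured 2.05, 2.37 and 2.37 FPKM across flox controls 1 to 3, against 6.41, 7.02 and 10.8 FPKM across CKO 1 to 3, with CKO 3 highest as for Gpx3. This likeness follows from the choice by distance.

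**Figure D4:**
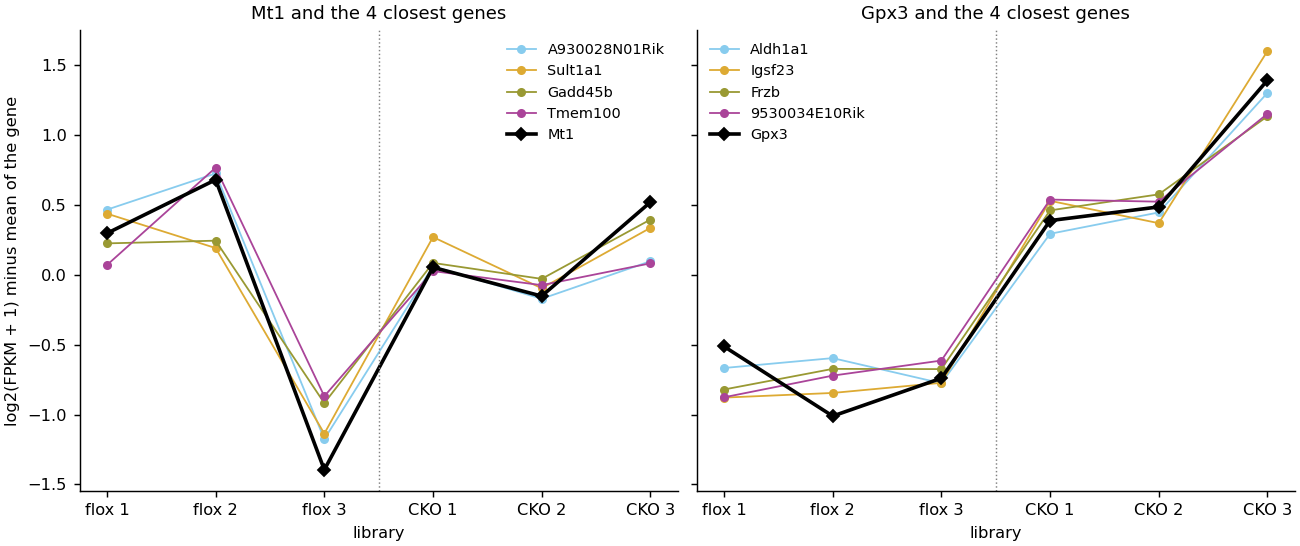
Centred log2(FPKM + 1) values (vertical axes) by library (horizontal axes) of Mt1 and its 4 closest genes, left, and of Gpx3 and its 4 closest genes, right. Mt1 and its neighbours are lowest in flox control 3, while Gpx3 and its neighbours peak in CKO 3. The likeness within a panel follows from how the neighbours were chosen.

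Genes of the other lists were called in both directions. Over 9 lists of NRF2 targets, regulators, antioxidant, glutathione, metal, glucocorticoid, acute phase, selenoprotein and oxidant-producing genes, 168 of 190 genes were tested, of which 17 (10.1%) were called higher and 10 (5.95%) lower, against 5.69% and 5.49% of all genes tested. The share called lower is near that background. The lists reach beyond NRF2: Cdkn1a, Serpina3n, Lbp, Osmr, Timp1, Dio2 and Mt3 among those higher come from the glucocorticoid, acute phase, selenoprotein and metal lists. Of 34 further NRF2 targets, 5 rose, 2 fell and 27 did not pass, with a median log2 fold change of 0.11. Ephx1, the microsomal epoxide hydrolase gene, measured 12.4, 15.5 and 12.3 FPKM across flox controls 1 to 3, against 39.6, 29.8 and 40.0 FPKM across CKO 1 to 3 (log2 fold change 1.37, SE 0.15, limma adjusted p = 0.00607). As for Nqo1, CKO 2 was the lowest of the CKO libraries. Hmox1, which encodes the inducible heme oxygenase, measured 6.38, 8.97 and 5.99 FPKM across flox controls 1 to 3, against 17.3, 15.8 and 14.2 FPKM across CKO 1 to 3 (log2 fold change 1.06, adjusted p = 0.0117), a call lost without flox control 1 (0.0557). Summed markers of macrophages, which express Hmox1, were highest in CKO 1 (883 FPKM) and lowest in CKO 3 (119 FPKM), and their part in the Hmox1 values was not tested. Aldh1a1 rose from 2.82 ± 0.238 to 9.30 ± 4.15 FPKM (adjusted p = 0.0231), and was not called without flox control 1 (0.0865), 2 (0.0680) or 3 (0.0791). Pgd, a pentose phosphate dehydrogenase gene, rose from 7.06 ± 0.774 to 10.3 ± 0.797 FPKM (adjusted p = 0.0317), a call that ended when any 1 library other than CKO 1 was left out (0.0551 to 0.112). Gstm2, the last of the 5 that rose and named after its values were seen, measured 16.3 ± 1.99 and 30.2 ± 7.90 FPKM (adjusted p = 0.0450), and was called without CKO 2 but not without any of the other 5 libraries (0.0599 to 0.138).

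Other genes of that list did not pass the test or fell. Gsr, the glutathione reductase gene, was at 8.78 ± 0.324 and 8.96 ± 0.973 FPKM (limma adjusted p = 0.906), and Txn1, the thioredoxin gene, at 67.4 ± 10.8 and 72.5 ± 7.33 FPKM (adjusted p = 0.677). Gstm5, a glutathione transferase gene with close paralogs, fell from 22.1 ± 1.99 to 11.6 ± 1.38 FPKM (adjusted p = 0.00906). Idh1, the cytosolic NADP-dependent isocitrate dehydrogenase gene, fell from 15.3 ± 0.393 to 11.7 ± 0.438 FPKM (adjusted p = 0.0326), but was not called without any 1 of the 6 libraries (0.0629 to 0.115) or rescaled to the same sum with (0.226) or without mitochondrial genes (0.0511). The cystine transporter gene Slc7a11, a target of both NRF2 and ATF4, was too low to be tested, with 2 to 4 reads per control and 16 to 30 per CKO library. Among 14 pathway regulators 1 rose and 13 did not pass, near the 5.69% called higher over all genes tested. That one, Mafk, encodes a small MAF partner of NRF2 and measured 10.02, 12.6 and 8.28 FPKM across flox controls 1 to 3, against 17.6, 17.9 and 23.2 FPKM across CKO 1 to 3 (adjusted p = 0.0271). It was not called without flox control 1 (0.1009), flox control 3 (0.0779), CKO 2 (0.0588) or CKO 3 (0.0706). Sqstm1, whose product p62 binds KEAP1, was picked after its values were seen: its means were 68.5 ± 6.69 and 118 ± 29.8 FPKM, short of the threshold (adjusted p = 0.0576).

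**Figure D5:**
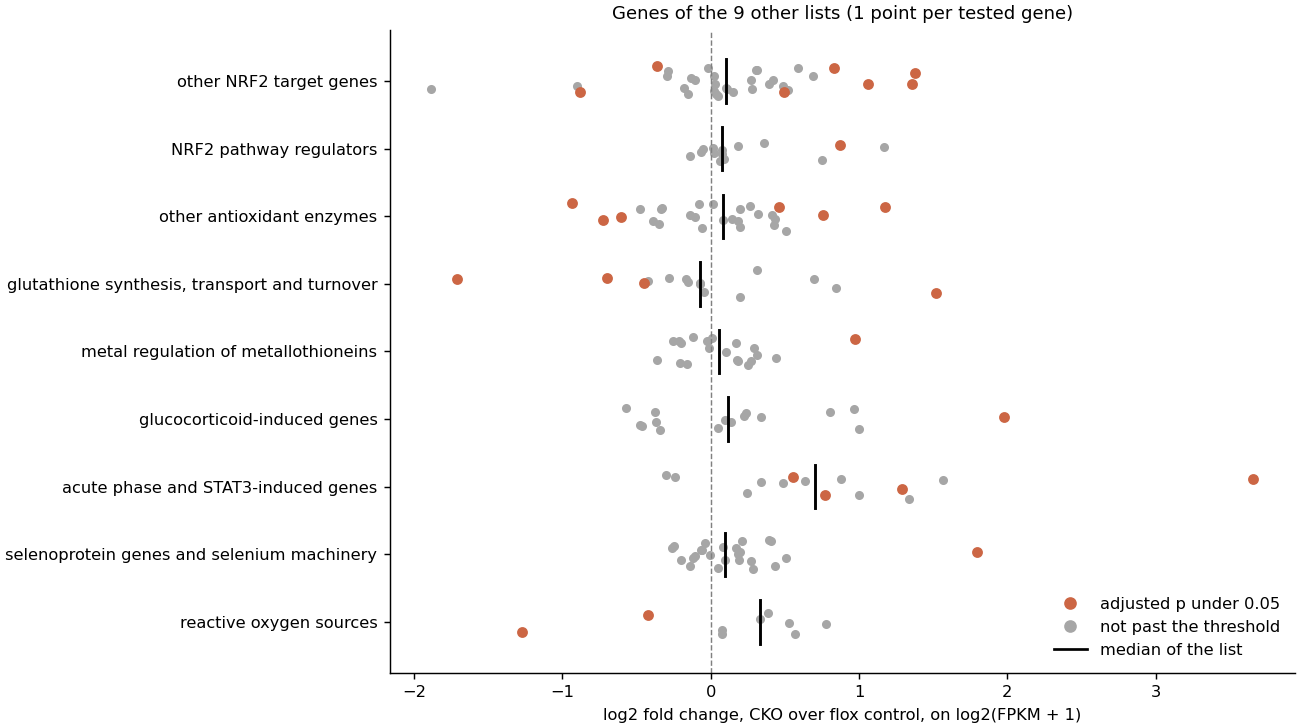
Log2 fold change of CKO over flox control (horizontal axis) of the tested genes of each list (rows); coloured points passed the threshold and black bars are list medians. List medians range from -0.07 to 0.70, and called genes lie on both sides of 0 in 3 lists.

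Among 27 other antioxidant enzymes, 3 rose, 3 fell and 21 did not pass, with a median log2 fold change of 0.08. Over all genes tested 5.69% were called higher and 5.49% lower. The 3 that fell, Msrb2, Prdx3 and Sod2, encode enzymes of the mitochondrion. Txn2 (log2 fold change -0.39), Prdx5 (-0.08), Glrx5 (0.02) and Txnrd2 (0.18), also mitochondrial and picked after their values were seen, did not pass. Sod2, the manganese superoxide dismutase gene, measured 52.5, 55.8 and 46.2 FPKM across flox controls 1 to 3, against 32.2, 30.1 and 38.4 FPKM across CKO 1 to 3 (limma adjusted p = 0.0317). Prdx3, the mitochondrial peroxiredoxin gene, measured 157, 152 and 128 FPKM across flox controls 1 to 3, against 86.5, 76.3 and 100.5 FPKM across CKO 1 to 3 (adjusted p = 0.0274). The Sod2 call was lost without any 1 library other than CKO 3 (adjusted p from 0.0593 to 0.117), and that of Prdx3 without flox control 1 (0.110), 2 (0.0840), 3 (0.0580) or CKO 2 (0.0666). Sesn2, a stress-induced sestrin gene, rose from 2.26 ± 0.582 to 6.36 ± 1.11 FPKM (adjusted p = 0.0107, and 0.0519 without flox control 1). Sod3, the secreted superoxide dismutase gene, rose from 10.3 ± 1.28 to 18.0 ± 2.17 FPKM (adjusted p = 0.0175). Without flox control 2 (0.0584), flox control 3 (0.0612) or CKO 3 (0.0574) Sod3 was no longer called. Msrb2, a methionine sulfoxide reductase gene, fell from 31.1 ± 2.46 to 16.05 ± 3.89 FPKM (adjusted p = 0.0249), and was not called without flox control 1 (0.0947), 2 (0.0629), 3 (0.0846) or CKO 3 (0.0609). Pon2, a paraoxonase gene, rose from 6.475 ± 0.433 to 9.32 ± 0.780 FPKM (adjusted p = 0.0280), a call that ended without any 1 library other than CKO 1 (0.0666 to 0.0979).

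In the glutathione list, 1 of 15 tested genes rose and 3 fell, with a median of -0.07. The shares over all genes tested were 5.69% higher and 5.49% lower, so the count that rose is near the background. Gstk1, a glutathione transferase gene of mitochondria and peroxisomes, was at 17.6, 17.1 and 12.7 FPKM across flox controls 1 to 3, against 6.11, 2.69 and 4.06 FPKM across CKO 1 to 3 (log2 fold change -1.71, SE 0.25, limma adjusted p = 0.0113, and 0.0537 without flox control 1). Glo1, the glyoxalase gene, fell from 44.3 ± 1.33 to 32.2 ± 2.04 FPKM (adjusted p = 0.0286), and Chac2, whose product degrades glutathione, from 7.24 ± 0.969 to 4.09 ± 0.782 FPKM (adjusted p = 0.0295). Dpep1, a dipeptidase gene of glutathione turnover, rose from 12.8 ± 6.09 to 36.3 ± 9.53 FPKM (adjusted p = 0.0463). Leaving out 1 library ended the call of Glo1 in 5 of 6 cases (0.0547 to 0.105), of Chac2 in 4 (0.0675 to 0.0840) and of Dpep1 in 6 (0.0606 to 0.125). Dpep1 was also not called with a pseudocount of 0.01 (0.0506) or robust variance estimation (0.0511). Of 20 genes of zinc and copper handling and metallothionein control, Mt3 rose and 19 did not pass, again near the background. Mtf1 measured 1.66 ± 0.192 and 2.003 ± 0.229 FPKM (adjusted p = 0.351), with 8.09% of its exon bases shared with 1110065P20Rik on the opposite strand. Slc30a1, a zinc exporter gene that MTF1 activates, measured 6.51 ± 0.183 and 5.52 ± 0.914 FPKM (adjusted p = 0.283).

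Gpx3 is a selenoprotein, and other selenoprotein genes were listed together with genes of the selenium machinery. Of 25 such genes tested, 1 rose and 24 did not pass, with a median log2 fold change of 0.09. Over all genes tested 5.69% were called higher, so this count is near the background. The one that rose was Dio2, the thyroid hormone activating deiodinase gene, from 0.566 ± 0.164 to 4.53 ± 1.31 FPKM (limma adjusted p = 0.00607). Gpx1 measured 60.3 ± 7.68 and 81.3 ± 2.05 FPKM (adjusted p = 0.068) and Gpx4 147 ± 21.8 and 212 ± 51.0 FPKM (adjusted p = 0.166); both were picked after their values were seen. Of 14 acute phase and STAT3-induced genes, 4 rose and 10 did not pass, with a median of 0.70. Serpina3n, a protease inhibitor gene, rose from 0.959 ± 0.207 to 24.8 ± 8.88 FPKM (adjusted p = 0.00293). Lbp (1.49 ± 0.0838 and 3.27 ± 0.622 FPKM), Osmr (2.11 ± 0.237 and 3.57 ± 0.196 FPKM) and Timp1 (4.604 ± 1.45 and 12.6 ± 3.40 FPKM) were the others that rose, at adjusted p of 0.0162, 0.0170 and 0.0253. Each of these 3 calls ended without flox control 2 (0.0551 to 0.0555) or flox control 3 (0.0611 to 0.0635), among others. Of 9 genes for enzymes that make reactive oxygen or nitrogen species, 2 fell and 7 did not pass, against 5.49% called lower over all genes tested. Maob, the monoamine oxidase B gene, fell from 5.02 ± 0.583 to 1.601 ± 0.967 FPKM (adjusted p = 0.0258), a call that did not survive leaving out any 1 library other than CKO 1 (adjusted p from 0.0607 to 0.0962). Nos3, the endothelial nitric oxide synthase gene, fell from 17.3 ± 0.8235 to 12.6 ± 1.07 FPKM (adjusted p = 0.0354), and was not called without any 1 of the 6 libraries (0.0507 to 0.118) or when libraries were rescaled to the same sum with (0.226) or without mitochondrial genes (0.0576).

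Other settings ended some of these calls as well (limma adjusted p). With no filter on low values, Aldh1a1, Chac2, Dpep1, Gstm2, Mafk, Maob, Msrb2, Nos3, Pgd, Pon2, Prdx3, Sod2 and Timp1 were not called, at values from 0.0547 for Prdx3 to 0.107 for Dpep1. With libraries rescaled to the same sum, Chac2 (0.0573), Glo1 (0.1007), Pgd (0.0834) and Pon2 (0.0707) were not called.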

How the data were processed

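RNA from 6 mouse hearts was sequenced after poly-T selection with both ends read, per the labels' protocols, which describe no strand marking. The authors deposited 1 table of FPKM for 54532 genes, with the gene length in a column of its own, per the file headers. Per the submitters' processing notes, CASAVA, HISAT2 2.0.5, featureCounts 1.5.0-p3, DESeq2 1.20.0 and GRCm38.p6 were used, with no step assigned to a value. Multiplied by length, 100% of values were whole reads (tolerance 0.001) after division by 1 constant for each library. The depth this constant implies was 0.936 (CKO 3) to 1.09 (CKO 2) times the recovered reads of the library.

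The limma package (3.58.1, under R 4.3.3) compared genotypes on log2(FPKM + 1) for the 12144 genes whose mean reached 1 FPKM. Genotype was the only factor, the variance followed a trend, and p-values were adjusted over all these genes. Tables were made with Python 3.11.15 and pandas 2.3.3. The procedure was checked on simulated data with 200 changed genes and independent noise, its spread set by the mean level of the gene. Those data held no outlying library, so the check does not bear on calls that depend on 1 library. The members and gene lists were chosen with earlier results of these data known. Genes named are Ythdc1, the 10 members, up to 6 called genes per list by adjusted p (2 where none passed), 7 fixed by name and the 4 closest to Mt1 and Gpx3 (none for Mt2, which was not tested); others are said to be picked after their values were seen, or are cell type or sex-linked markers. Alternatives covered the pseudocount, the filter, 3 scalings, the variance model, voom on recovered reads, a replicate block and each library left out. The Dio2, Serpina3n, Ephx1 and Gstm5 calls held in all that could be fitted. Overlaps were taken from GENCODE M21, whose bounds matched the file for all 10 members. Protein sequences were not used here.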

Additional observations from a re-analysis of the deposited data

How the results depend on the processing

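Of the 2 members called, Nqo1 kept its call in all 17 alternatives and Gpx3 in 13. With no filter on low values, which raised the genes tested from 12144 to 27031, Gpx3 kept its log2 fold change of 1.51 but not its call (limma adjusted p = 0.0590). The counts were then 1 member higher, 9 genes of the 9 lists higher and 5 lower, and 388 higher and 410 lower over all genes. With a replicate block these were 11 and 6 genes of the 9 lists and 367 and 348 genes, while Nqo1 (0.0297) and Gpx3 (0.0443) remained called and Ythdc1 did not (0.0542). The block also ended the calls of Dpep1, Glo1, Gstm2, Idh1, Mafk, Nos3, Osmr, Pgd, Pon2, Prdx3, Sod2 and Timp1, at values from 0.0525 (Pgd) to 0.104 (Idh1). Same-numbered libraries had deviations correlated at 0.139, 0.0597 and -0.0055, against -0.231 to 0.141 for differently numbered ones. With 3 libraries per group these values cannot settle whether the numbers pair the samples. Rescaling to the same sum over all genes gave 424 genes lower and turned Srxn1 to 0.0116 (log2, adjusted p = 0.980).

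Leaving out 1 library at a time gave 1 to 2 members higher, 5 to 17 genes of the 9 lists higher and 1 to 10 lower, and 160 to 807 genes higher and 155 to 683 lower overall. The log2 fold change of Gpx3 then lay between 1.19 and 1.69, that of Mt1 between -0.35 and 0.69 and that of Srxn1 between -0.111 and 0.0879 and that of Gsr between -0.0536 and 0.0794. The sign turned for Mt1 without flox control 3, for Srxn1 without flox control 2 (0.0474) or CKO 2, and for Gsr without CKO 1. Gclc and Gclm were not tested under the filter of 5 FPKM. Mt2 and Slc7a11 had at most 4 and 30 reads in a library and were under the filter; for Mt2 the cause was not tested.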
